A study of Mus musculus with 18 samples.

Results

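The genes described here are 9 members of the helper T cell program, named by symbol rather than by a rule on measured values, out of 49585 genes in the count table. They are the lineage factors Tbx21 and Gata3 and the cytokines Ifng, Il4, Il13, Il17a, Il17f, Il22 and Il2. All 9 were found in the table and all 9 passed the filter on low counts in every comparison.

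The samples were CD45+ leukocytes from Kaede mice, which carry a fluorescent protein that turns from green to red under violet light, so that cells lit in a tissue can be found again elsewhere. The mice had been given i.v. OT-II CD45.1 CD4+ T cells driven to a Th1 phenotype in culture, with IL-12 and a block of IL-4, then ovalbumin in complete Freund's adjuvant, and 10 days later 100 µg heat-aggregated ovalbumin (HAO) in the footpad (joint) or the ear pinna (skin). Tissue was photoconverted the day before harvest. Red CD45+ cells still in the tissue are called nonmigrated and those in the draining node migrated, which gave nonmigrated and migrated groups for each site, with 3 libraries a group from pooled male and female mice. A further 3 libraries each were labelled steady state and as cells that had moved from joint or ear to its node, named here joint and skin steady-state nodes, and their titles carry PBS and KG (joint) and Naive (skin). These terms are not explained. Although the shared protocol names a sort of red cells, the gate and challenge of the steady-state libraries are unclear. Whether the steady-state mice had received the T cell transfer and the immunization is also unclear. All of this bears on every value set against these libraries. Transferred Th1 cells are thus part of the model in the inflamed groups. The libraries hold all leukocytes, so that fewer cells making a transcript and less transcript per cell cannot be told apart. The p-values below measure the spread between these pools.

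Naive CD4+ T cells take on helper fates under the cytokines they meet. T-bet, the product of Tbx21, directs the Th1 fate and interferon gamma (Ifng), GATA-3 directs the Th2 fate with IL-4 and IL-13, and Th17 cells make IL-17A, IL-17F and IL-22. IL-2 is made early by activated T cells as a growth factor. None of these genes belongs to CD4+ T cells alone, since NK cells, gamma delta T cells, innate lymphoid cells, mast cells and basophils also make some of them.

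Several of these genes are neighbors in the mouse genome (mm10, GENCODE M21). Il4 (chr11:53602982-53618669) and Il13 (chr11:53631324-53634702) lie 12.7 kb apart on the minus strand with 0 protein-coding genes between them. Il17a (chr1:20730905-20734496, plus strand) and Il17f (chr1:20777146-20790617, minus strand) lie 42.6 kb apart, also with 0 between, and Ifng (chr10:118441046-118445892) and Il22 (chr10:118204942-118210047) lie 231.0 kb apart on the plus strand. Tbx21 (chr11:97098071-97115331), Gata3 (chr2:9857078-9890034) and Il2 (chr3:37120523-37125959) are all on the minus strand.

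All 9 genes had a RefSeq promoter entry (GRCm38.p6), and the 250 bases before the start are printed for 6 cytokines, to set the neighboring pairs Il4 with Il13 and Il17a with Il17f beside Ifng and Il2, whose levels are described after them. They are written 5′ to 3′ on the strand of the gene, and capitals mark TATAAA, the core letters of a TATA box, searched on the strand of the gene only.
Ifng: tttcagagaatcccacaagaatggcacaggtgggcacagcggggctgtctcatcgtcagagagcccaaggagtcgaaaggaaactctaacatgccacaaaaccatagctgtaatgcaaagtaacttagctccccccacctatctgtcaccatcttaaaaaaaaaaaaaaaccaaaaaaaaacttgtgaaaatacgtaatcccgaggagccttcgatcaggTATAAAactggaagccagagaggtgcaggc
Il4: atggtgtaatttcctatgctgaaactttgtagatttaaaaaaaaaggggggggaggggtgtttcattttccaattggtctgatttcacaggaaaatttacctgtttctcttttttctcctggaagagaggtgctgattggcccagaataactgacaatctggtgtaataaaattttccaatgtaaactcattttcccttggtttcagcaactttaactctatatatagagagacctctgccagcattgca
Il13: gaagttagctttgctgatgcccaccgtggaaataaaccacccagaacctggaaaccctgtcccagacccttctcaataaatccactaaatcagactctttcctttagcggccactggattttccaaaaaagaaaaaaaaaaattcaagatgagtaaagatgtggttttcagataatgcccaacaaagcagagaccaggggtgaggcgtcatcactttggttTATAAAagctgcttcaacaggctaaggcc
Il17a: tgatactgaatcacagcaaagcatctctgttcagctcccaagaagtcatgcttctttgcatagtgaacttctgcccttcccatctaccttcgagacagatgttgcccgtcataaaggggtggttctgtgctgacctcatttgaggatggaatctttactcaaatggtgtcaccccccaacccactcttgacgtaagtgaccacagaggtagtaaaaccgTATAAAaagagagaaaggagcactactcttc
Il17f: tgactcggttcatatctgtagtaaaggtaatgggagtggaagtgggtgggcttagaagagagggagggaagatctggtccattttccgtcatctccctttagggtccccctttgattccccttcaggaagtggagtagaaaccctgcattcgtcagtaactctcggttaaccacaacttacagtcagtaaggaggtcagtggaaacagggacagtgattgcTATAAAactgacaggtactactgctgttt
Il2: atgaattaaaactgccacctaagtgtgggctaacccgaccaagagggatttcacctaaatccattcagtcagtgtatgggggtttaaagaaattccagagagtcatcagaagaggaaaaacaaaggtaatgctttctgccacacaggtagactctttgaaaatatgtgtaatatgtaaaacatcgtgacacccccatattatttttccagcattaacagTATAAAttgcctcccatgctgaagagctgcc
The windows are chr10:118440796-118441045 (+) for Ifng, chr11:53618666-53618915 (-) for Il4, chr11:53634703-53634952 (-) for Il13, chr1:20730655-20730904 (+) for Il17a, chr1:20784271-20784520 (-) for Il17f and chr3:37125955-37126204 (-) for Il2. That of Il17f lies inside the longer GENCODE gene model, and that of Il4 is the outer of the 2 RefSeq starts. TATAAA began at position -30 from the start in Ifng, -29 in Il13 and Il17f, and -31 in Il17a and Il2, and is not in the Il4 window. The Il4 window does hold the similar letters tatatata near its end, which the search for exact letters leaves unmarked. TATAAA was in 7.6% of 32851 mouse promoter windows of the same length. GGAAA, the core letters bound by NFAT factors, was searched on both strands. It occurred 5 times in the Il4 window, 4 in that of Il13, 2 each in those of Il17f and Il2 and 1 in that of Ifng. The Il17a window did not hold it, while 55.6% of all windows did. These matches are letters in a window and say nothing of what binds there.

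Library totals ran from 19239531 to 43814403 assigned counts. The 6 inflamed skin libraries were the smallest, at up to 22528895, and they also had the lowest share of reads on no gene, 0.103 to 0.150% against 0.254 to 0.624% in the other 12. Depth and this share cannot be told apart from site in any comparison of inflamed joint with skin. A count of 3, taken as the floor, equals 0.0616 to 0.18 CPM (counts scaled to library size with TMM, the unit of all levels here), which covers counting error only. Among the 18 libraries, Tbx21, Gata3, Ifng, Il13 and Il17f were above 3 counts in all, Il4, Il17a and Il2 in 17, and Il22 in 15. Il4 and Il2 were scarce throughout, with at most 157 and 63 counts in a library. Skin nonmigrated replicate 3 stood apart: it was the lowest of its group for all 9 genes, and across genes it correlated with the other 2 libraries of the group at 0.974 and 0.981 on log2 CPM, against 0.993 between those. Ptprc, which encodes CD45, was at 1155 to 2530 CPM in all 18 libraries. The summed level of T cell markers in skin nonmigrated replicate 3 was 531 CPM against 1312 and 1535. Results that rest on it are therefore also given without it.

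**Figure D1:**
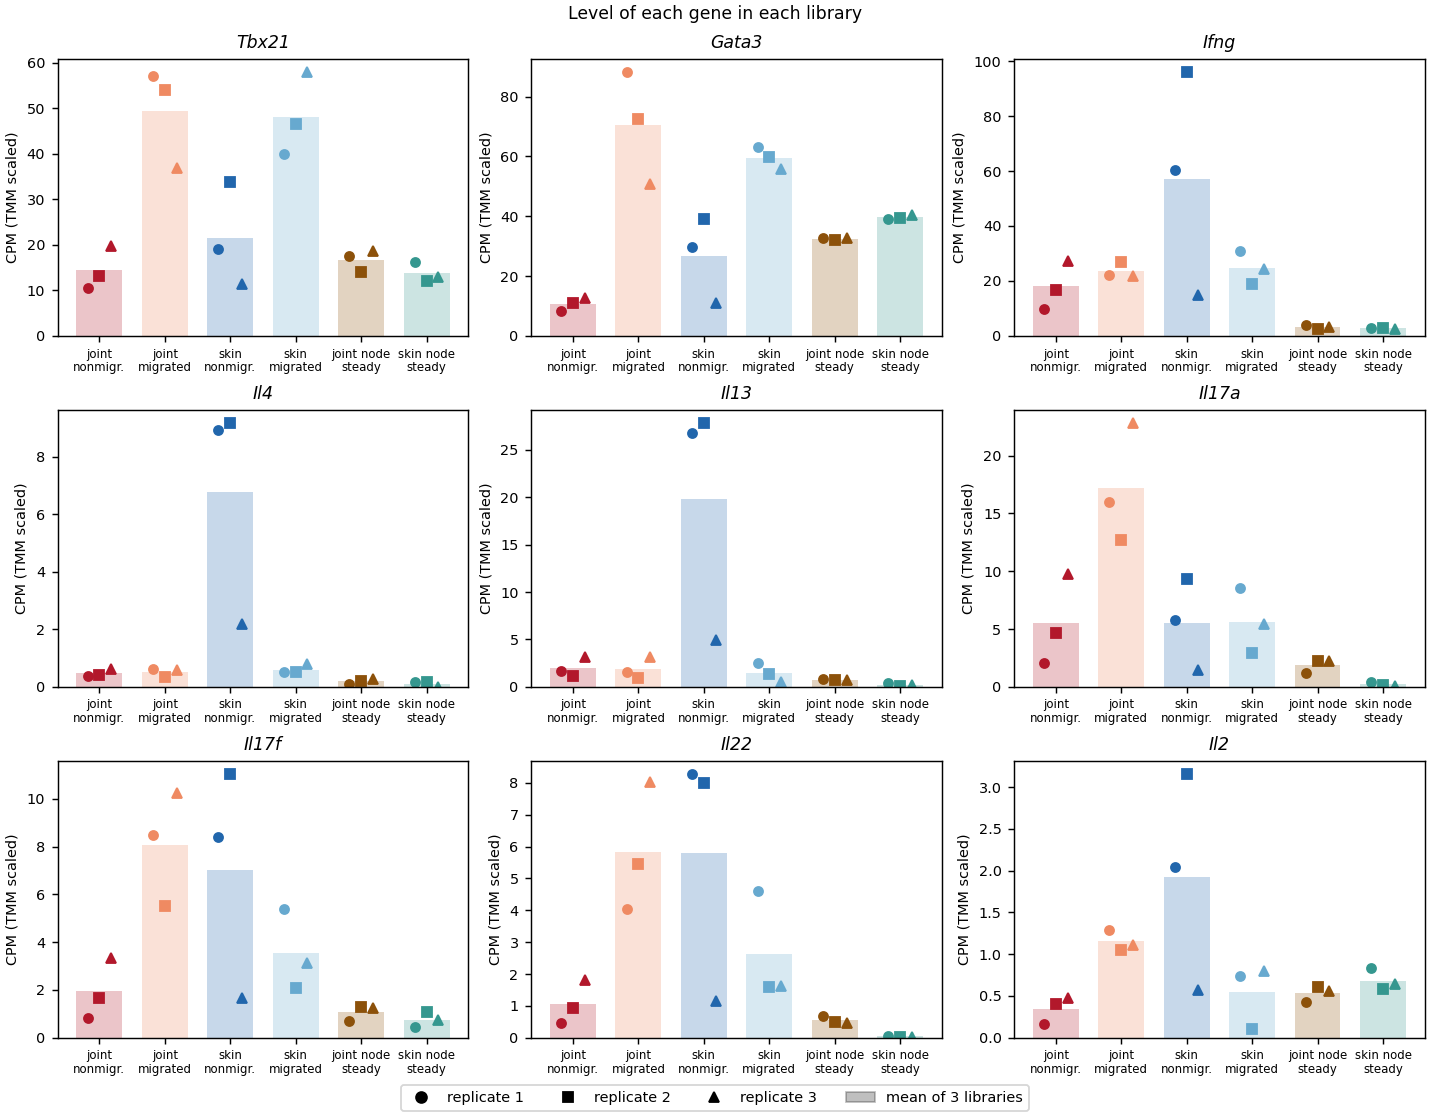
CPM (TMM scaled, linear axis from 0) of each of the 9 genes in each library, with points for the 3 libraries of a group and a bar for their mean. Il4 and Il13 were high in skin nonmigrated cells (means of 6.76 and 19.8 CPM), with replicate 3 well under the other 2 libraries, while Tbx21 and Gata3 were highest in both migrated groups.

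In the joint, 6 of the 9 genes rose with migration (joint migrated versus joint nonmigrated), where 16.0% of all 16777 genes tested did. These were both lineage factors and Il17a, Il17f, Il22 and Il2, by 1.64 to 2.73 on the log2 scale. In the skin, 2 rose (Tbx21 and Gata3) and 3 fell (Il4, Il13 and Il2), against 15.7% and 19.7% of all genes. Among cells that stayed, 6 were lower in the joint than in the skin (Gata3, Ifng, Il4, Il13, Il22 and Il2), a direction in which 8.86% of all genes passed. A gene passed when the adjusted p (edgeR quasi-likelihood test, Benjamini-Hochberg over all genes tested) was under 0.05 and the absolute log2 fold change over 1. The first count was 2 without joint nonmigrated replicate 1 and 3 without replicate 2 of that group, the skin count was 3 without skin nonmigrated replicate 1, and the joint to skin count was 2 without replicate 1 or 2 of either nonmigrated group. Without skin nonmigrated replicate 3, 6 genes fell in skin (Ifng, Il4, Il13, Il17f, Il22 and Il2), and neither lineage factor passed.

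**Figure D2:**
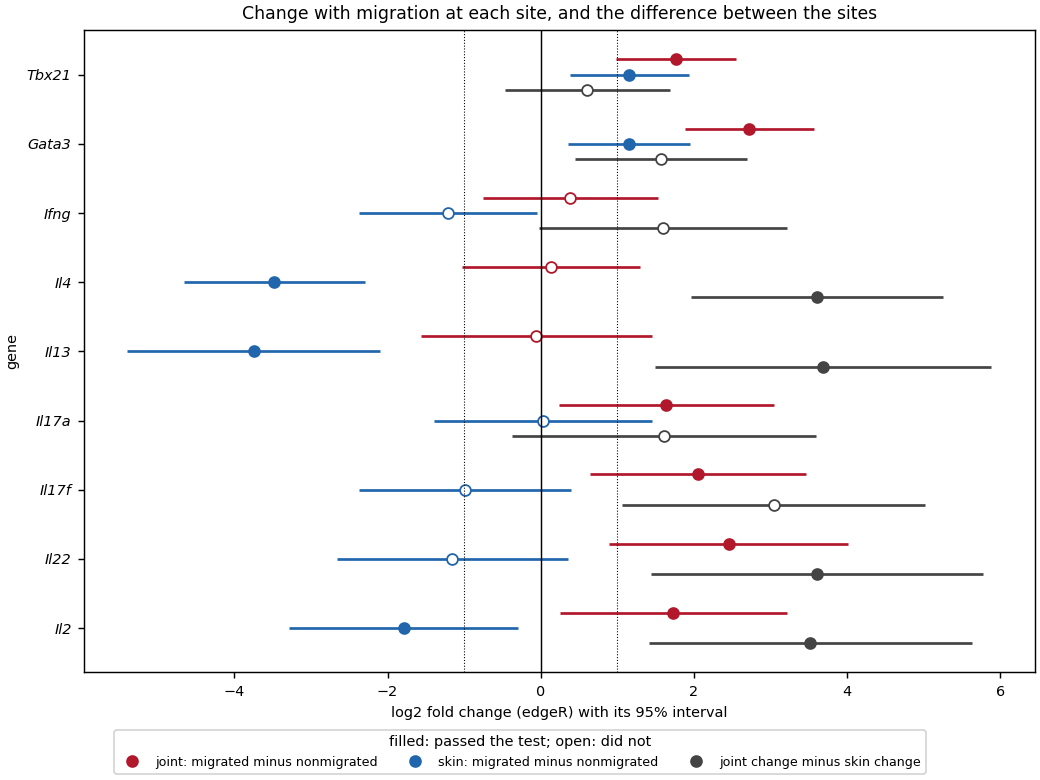
Log2 fold change with migration (horizontal axis, edgeR, with its 95% interval) for each gene in the joint (red) and the skin (blue), and the difference between the 2 changes (gray). Filled points passed the test, dotted lines mark a fold change of 1 on the log2 scale, and Il4, Il13, Il22 and Il2 have filled gray points.

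Tbx21, the Th1 lineage factor, stood at 10.6, 13.2 and 19.7 CPM in joint nonmigrated and at 57.1, 54.0 and 36.9 CPM in joint migrated libraries. In skin it was at 19.2, 33.9 and 11.4 CPM in nonmigrated and 40.0, 46.4 and 57.9 CPM in migrated cells. At each site every migrated library lay above every nonmigrated one. It rose 3.40-fold in the joint (log2 1.77, SE 0.36, edgeR adjusted p = 0.00134) and 2.23-fold in the skin (log2 1.16, SE 0.35, edgeR adjusted p = 0.0150). The skin change was 0.86 on the log2 scale without skin nonmigrated replicate 3 (edgeR adjusted p = 0.0354), under the fold limit. It also missed the test without skin nonmigrated replicate 1 or skin migrated replicate 3.

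Gata3, the Th2 lineage factor, is also used by CD8+ T cells, innate lymphoid cells and mast cells. It was at 8.18, 11.2 and 12.6 CPM in joint nonmigrated and 88.2, 72.5 and 50.6 CPM in joint migrated libraries, with no overlap. In skin the values were 29.7, 39.2 and 10.96 CPM in nonmigrated and 63.1, 59.7 and 55.7 CPM in migrated cells, again with no overlap. The rise in the joint was 6.62-fold (log2 2.73, SE 0.38, edgeR adjusted p = 0.000105) and that in the skin 2.23-fold (log2 1.15, SE 0.36, edgeR adjusted p = 0.0177), or 0.79 on the log2 scale without skin nonmigrated replicate 3 (edgeR adjusted p = 0.0152). The difference between the changes was 1.57 on the log2 scale and missed the threshold (edgeR adjusted p = 0.0822), while DESeq2 gave an adjusted p of 0.0283. Gata3 shares exonic bases with 9230102O04Rik on its own strand and with Gm13256 on the other, and default HTSeq counting leaves out reads that fall on more than 1 gene.

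Ifng, the Th1 cytokine that activates macrophages, was at 60.5, 96.0 and 14.9 CPM in skin nonmigrated, 31.0, 18.9 and 24.4 CPM in skin migrated, 9.82, 16.8 and 27.4 CPM in joint nonmigrated and 22.0, 26.7 and 21.7 CPM in joint migrated libraries. The 2 highest libraries were skin nonmigrated, and at each site migrated and nonmigrated libraries overlapped. Ifng was 3.19-fold lower in joint than in skin nonmigrated cells (log2 -1.67, edgeR adjusted p = 0.0371). That call was lost without replicate 1 or 2 of either nonmigrated group (adjusted p = 0.0914 to 0.172). Its change with migration was 0.38 on the log2 scale in the joint (SE 0.52, edgeR adjusted p = 0.556) and -1.21 in the skin (SE 0.53, edgeR adjusted p = 0.0689). Without skin nonmigrated replicate 3 the skin value was -1.66 (edgeR adjusted p = 0.00214). GENCODE places Gm49751, which has no row in the count table, over exons of Ifng.

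Il4 and Il13, the Th2 cytokines that act on B cells, epithelium and macrophages, had their highest levels in skin nonmigrated cells. Il4 was at 8.94, 9.18 and 2.18 CPM there, from 149, 157 and 42 counts, and at 0.327 to 0.798 CPM in the other 9 inflamed libraries, from 10 to 30 counts. Il13 was at 26.7, 27.8 and 4.94 CPM in skin nonmigrated and at 0.532 to 3.17 CPM in the other 9. Every skin nonmigrated library, replicate 3 included, was above all the others for both genes.

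In skin, Il4 fell 11.1-fold with migration (log2 -3.48, SE 0.54, edgeR adjusted p = 0.000212) and Il13 fell 13.4-fold (log2 -3.75, SE 0.75, edgeR adjusted p = 0.00128). Both calls remained whichever of the 6 skin libraries was left out. Among nonmigrated cells Il4 was 14.3-fold (edgeR adjusted p = 0.000602) and Il13 10.0-fold lower in the joint (edgeR adjusted p = 0.00649). In the joint the change with migration was 0.13 on the log2 scale for Il4 (SE 0.53, 95% interval -1.03 to 1.29, edgeR adjusted p = 0.850) and -0.06 for Il13 (SE 0.69, 95% interval -1.56 to 1.45, edgeR adjusted p = 0.954), at 12 to 30 counts of Il4 per library. These are wide intervals at low depth. Per kilobase of exon, Il13 exceeded Il4 by 2.30 to 3.09 times in the 3 skin nonmigrated libraries and by 2.97 to 4.99 times in the 3 joint nonmigrated ones.

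Il17a and Il17f encode the Th17 cytokines that recruit neutrophils, acting as homodimers or as a heterodimer of both. Il17a was at 2.05, 4.68 and 9.80 CPM in joint nonmigrated, 16.0, 12.7 and 22.8 CPM in joint migrated, 5.76, 9.35 and 1.46 CPM in skin nonmigrated and 8.56, 2.95 and 5.41 CPM in skin migrated libraries. Joint migrated cells had the highest levels, with each library above the other 9. Il17a rose 3.12-fold with migration in the joint (log2 1.64, SE 0.64, edgeR adjusted p = 0.0466), a call close to the threshold that was lost without either of joint nonmigrated replicates 1 and 2 or any of the 3 joint migrated libraries (adjusted p = 0.0580 to 0.145). In skin its change was 0.03 on the log2 scale (95% interval -1.40 to 1.46, edgeR adjusted p = 0.973).

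Il17f was at 0.848, 1.66 and 3.34 CPM in joint nonmigrated, 8.48, 5.54 and 10.2 CPM in joint migrated, 8.40, 11.04 and 1.66 CPM in skin nonmigrated and 5.40, 2.10 and 3.15 CPM in skin migrated libraries. Unlike those of Il17a, skin nonmigrated replicates 1 and 2 were in the range of joint migrated cells or above it. Il17f rose 4.16-fold in the joint (log2 2.06, SE 0.64, edgeR adjusted p = 0.0176), with no overlap between the groups, and missed the test without joint nonmigrated replicate 1 or 2 (adjusted p = 0.0670 and 0.0600). Its skin change was -0.99 on the log2 scale (edgeR adjusted p = 0.203) and -1.45 without skin nonmigrated replicate 3 (edgeR adjusted p = 0.0297).

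The balance of the 2 IL-17 genes was set within each library. The ratio of Il17a to Il17f, each per kilobase of exon, was 4.18 to 5.07 in joint nonmigrated and 3.26 to 3.97 in joint migrated libraries, but 2.43 to 2.97 in skin migrated libraries and 1.18 to 1.51 in skin nonmigrated ones. The ranges of these 4 groups did not overlap, and skin nonmigrated replicate 3, at 1.51, was close to its group. These ratios were not tested.

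**Figure D3:**
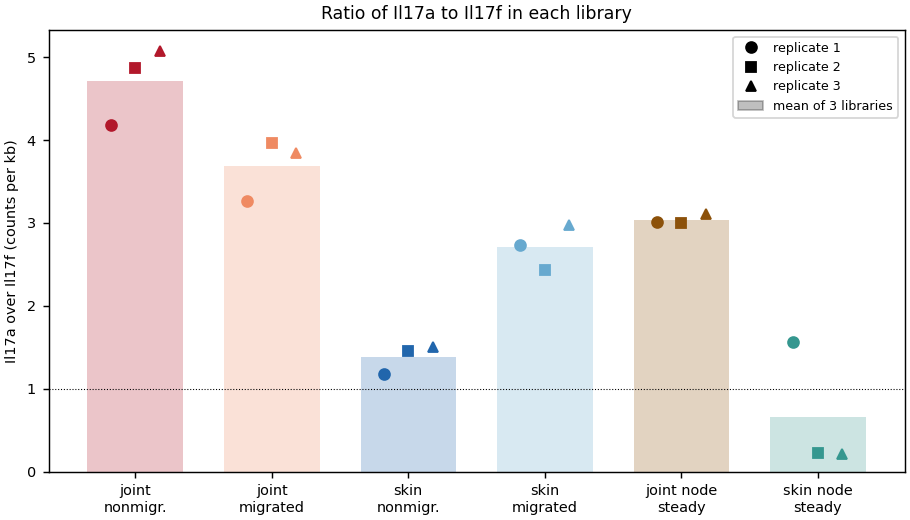
Ratio of Il17a to Il17f counts, each per kilobase of exon (vertical axis from 0, dotted line at 1), in each library of the 6 groups, with bars for group means. Joint libraries lie at 3.00 to 5.07 and inflamed skin libraries at 1.18 to 2.97, and the skin steady-state values rest on 3 to 19 counts of Il17a.

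Il22 encodes a cytokine that acts on epithelial rather than immune cells. It was at 0.465, 0.930 and 1.80 CPM in joint nonmigrated, 4.04, 5.44 and 8.04 CPM in joint migrated, 8.28, 8.01 and 1.14 CPM in skin nonmigrated and 4.61, 1.60 and 1.64 CPM in skin migrated libraries. Joint migrated libraries were all above joint nonmigrated ones, and skin groups overlapped through replicate 3. Il22 rose 5.48-fold in the joint (log2 2.45, SE 0.71, edgeR adjusted p = 0.0120), or 2.08 on the log2 scale without joint nonmigrated replicate 1 (adjusted p = 0.0502). In skin its difference was -1.15 (SE 0.69, edgeR adjusted p = 0.174), or -1.64 without skin nonmigrated replicate 3 (edgeR adjusted p = 0.0244). Il22 counts are uncertain because Iltifb is a near-identical copy and reads that match both were not counted. Iltifb itself had 18 to 31 counts in joint migrated and at most 1 in joint nonmigrated libraries.

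Il2, the T cell growth factor, was the scarcest of the 9 genes per kilobase in joint nonmigrated, skin nonmigrated and skin migrated cells. It had 6, 12 and 16 counts in joint nonmigrated, 63, 45 and 52 in joint migrated, 34, 54 and 11 in skin nonmigrated and 16, 2 and 18 in skin migrated libraries, or 0.0999 to 3.16 CPM. Joint migrated libraries (1.05 to 1.29 CPM) did not overlap joint nonmigrated ones (0.164 to 0.481 CPM). Il2 rose 3.32-fold in the joint (log2 1.73, SE 0.68, edgeR adjusted p = 0.0470) and fell 3.46-fold in the skin (log2 -1.79, SE 0.68, edgeR adjusted p = 0.0419). The joint call was lost without any single one of the 6 joint libraries (adjusted p = 0.0593 to 0.158), and the skin call without skin nonmigrated replicate 1 or 2 or skin migrated replicate 1 or 2 (adjusted p = 0.0595 to 0.177).

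The test of whether migration changed a gene differently at the 2 sites was passed by 4 of the 9, Il4, Il13, Il22 and Il2, all with the higher change in the joint, a direction in which 3.96% of all genes passed. The difference between the changes, on the log2 scale, was 3.61 for Il4 (SE 0.75, edgeR adjusted p = 0.0151). It was 3.69 for Il13 (edgeR adjusted p = 0.0446), 3.61 for Il22 (edgeR adjusted p = 0.0470) and 3.52 for Il2 (edgeR adjusted p = 0.0461). Of these, Il4 passed whichever library was left out. The number of genes called was 4 without joint nonmigrated replicate 3, 7 without skin nonmigrated replicate 3, and 1 or 2 without any other single library of the 12. Among migrated cells of the 2 sites, 0 of 9 genes differed by edgeR and 0 by DESeq2, where 1.14% of all genes did, and 1 (Il17a) had an unadjusted p under 0.05. Il17a differed 3.05-fold, with joint migrated libraries above all skin migrated ones, at an edgeR adjusted p of 0.239. For Tbx21 the difference was 0.04 on the log2 scale (95% interval -0.72 to 0.79) and for Ifng -0.08 (-1.22 to 1.06).

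T cell content moved with these groups. The summed level of 13 T cell markers, among them Cd3e and Trac, was 362 to 660 CPM in joint nonmigrated and 2908 to 4033 CPM in joint migrated libraries, and all 13 rose. In skin it was 531 to 1535 CPM in nonmigrated and 3278 to 3464 CPM in migrated libraries, and 11 of 13 rose. Counts of each gene were therefore also set against the summed counts of Cd3d, Cd3e, Cd3g and Cd247. That sum averaged 116.5 CPM in joint nonmigrated and 806.7 CPM in joint migrated libraries, and 379.6 and 755 CPM in those of skin. A gene whose CPM rose less than this sum is higher in nonmigrated cells on this scale. How many of all genes show that order was not counted. On that scale Gata3 was at 84.4 to 112 counts per 1000 CD3 counts in joint nonmigrated and 77.9 to 92.1 in joint migrated libraries, which overlap, and Tbx21 was higher in nonmigrated joint cells (104.5 to 145 against 56.7 to 68.6).

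Ifng per 1000 CD3 counts was higher in nonmigrated cells of both sites. It was 133 to 183 in joint nonmigrated against 22.4 to 34.0 in joint migrated libraries, and 86.6 to 192 in skin nonmigrated against 25.2 to 40.8 in skin migrated ones. The same order without overlap held for Il4 at both sites, at 3.15 to 5.23 against 0.416 to 0.923 in the joint and 12.7 to 19.1 against 0.665 to 1.06 in the skin. Il13 followed it too, at 9.19 to 22.8 against 1.22 to 4.88 in the joint. Il2, which rose in the joint by CPM, was in the opposite order on this scale, at 2.24 to 3.21 in nonmigrated against 1.32 to 1.71 in migrated joint libraries, and at 3.32 to 6.32 against 0.133 to 1.06 in the skin. Il22 overlapped between joint groups (6.35 to 12.05 against 4.11 to 12.4), as did Il17a and Il17f. In the skin, Il22 was at 6.63 to 17.7 in nonmigrated against 2.13 to 6.07 in migrated libraries, and Il17f at 9.65 to 22.1 against 2.79 to 7.11, both without overlap. Il17a overlapped there too (8.44 to 18.7 against 3.92 to 11.3). In the skin, ratios to Trac, Trbc1 and Trbc2 in place of the CD3 genes gave lower log2 ratios of migrated to nonmigrated cells for all 9 genes, so that Tbx21 stood at -0.78 in place of 0.13 and Gata3 at -0.71 in place of 0.20. None of these ratios assigns a transcript to a cell, and no test was made on them.

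**Figure D4:**
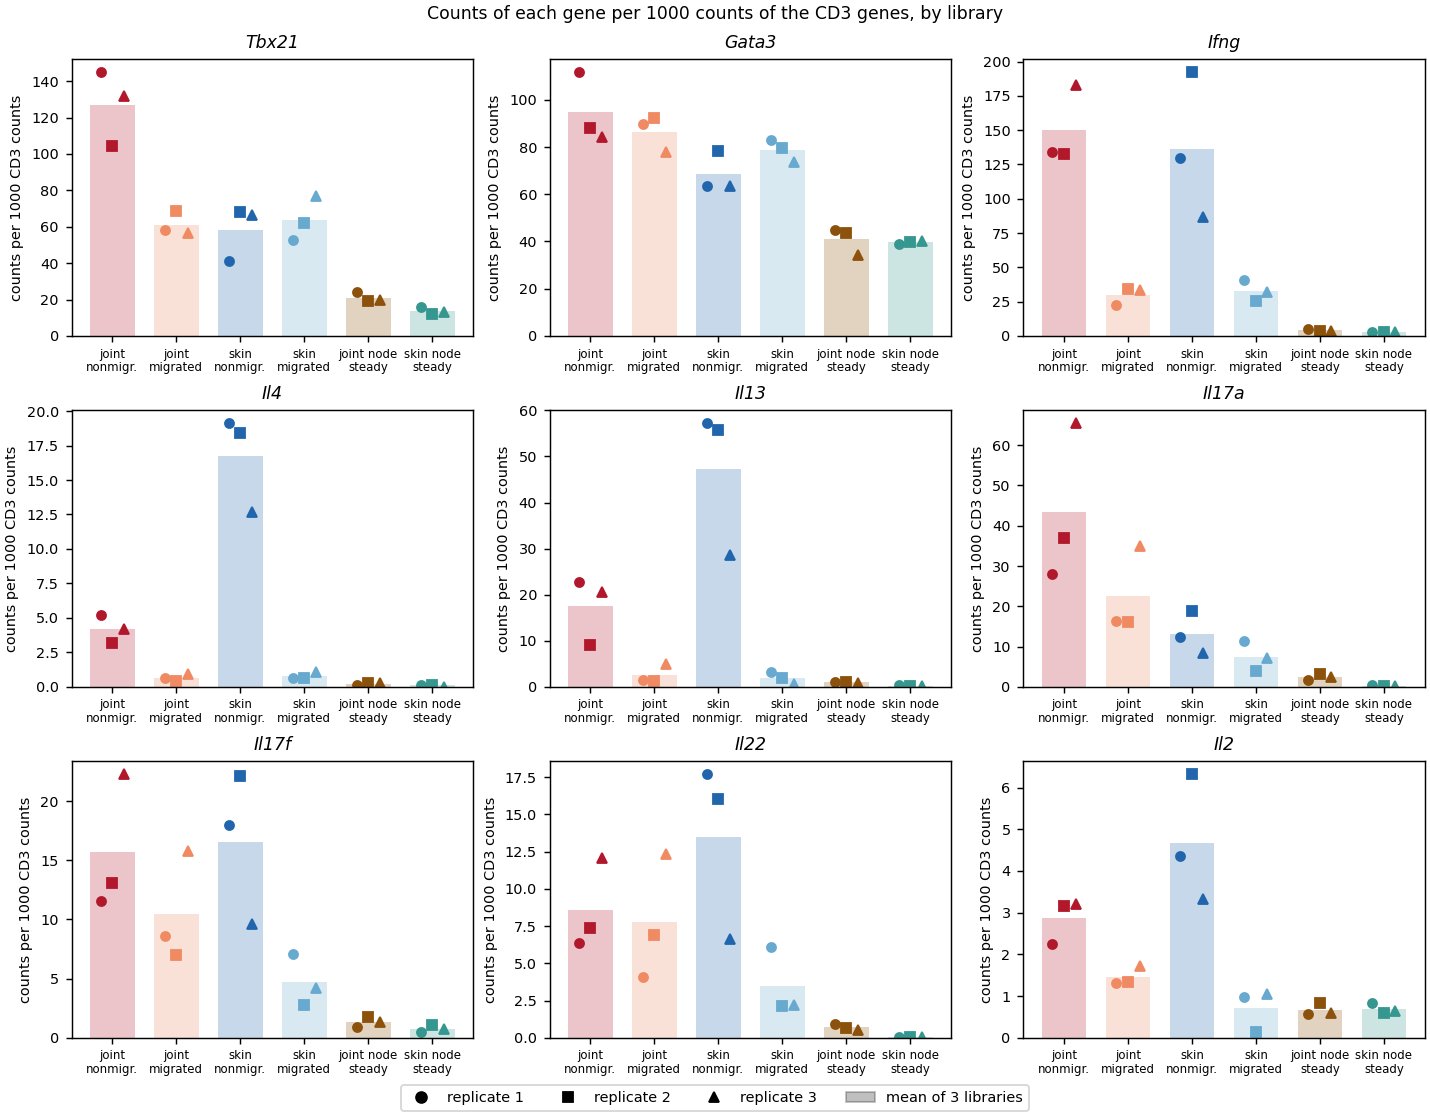
Counts of each gene per 1000 counts of Cd3d, Cd3e, Cd3g and Cd247 together (vertical axis from 0), by library, with bars for group means. Ifng, Il4, Il13 and Il2 are higher in nonmigrated than in migrated libraries at each site without overlap. Il17f and Il22 are so in the skin only, and Tbx21 in the joint only. The CD3 level that all genes are divided by is itself lower in nonmigrated libraries, so that the median gene has the same order. Steady-state nodes have the lowest Ifng values (2.64 to 5.22).

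Markers of other cells known to make these cytokines also differed. The summed level of 9 mast cell and basophil markers, such as Cpa3 and Mcpt8, was 771 to 1439 CPM in skin nonmigrated and 8.34 to 12.45 CPM in skin migrated libraries, and all 9 fell. In the joint it was 232 to 656.5 CPM in nonmigrated and 23.2 to 281 CPM in migrated libraries, and 4 of 9 fell. Skin nonmigrated cells thus had the highest sum of these markers. Gene by gene the sites differed less. Of the 9 markers, 3 were lower and 0 higher in joint than in skin nonmigrated cells, with a median log2 difference of 0.27. Skin nonmigrated replicate 3, at 771 CPM, had the lowest sum of its group, and its Il4 was 2.18 CPM against 0.383 to 0.631 CPM in the joint nonmigrated libraries, at sums of 232 to 656.5 CPM. The 4 group 2 innate lymphoid cell markers were Il1rl1, Il17rb, Klrg1 and Areg, of which all but Klrg1 are also in the Th2 list described below. They summed to 44.4 to 59.9 CPM in skin nonmigrated and 61.7 to 110 CPM in skin migrated libraries. Eosinophil markers (4 genes) summed to 2.51 to 38.1 CPM in skin nonmigrated libraries, highest in replicate 3. The part of these cell types in the levels of Il4 and Il13 was not tested.

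The 5 gamma delta T cell markers were Trdc, Tcrg-C1, Sox13, Cd163l1 and Blk, the last also a B cell gene. They summed to 27.9 to 60.3 CPM in joint nonmigrated and 250 to 394 CPM in joint migrated libraries, and all 5 rose. All 3 B cell markers rose as well, with sums of 55.7 to 146 CPM in joint nonmigrated and 406 to 548 CPM in joint migrated libraries. In skin nonmigrated cells the gamma delta T cell markers summed to 281, 294 and 98.1 CPM. Replicate 3 was lowest here, as it was for all 9 genes and for the T cell, NK cell and mast cell marker sums. NK cell markers (6 genes) summed to 127.5 to 157.5 CPM in joint nonmigrated and 279 to 489 CPM in joint migrated libraries, and 5 of 6 rose, while 188 to 572 CPM in skin nonmigrated overlapped 343 to 478 CPM in skin migrated libraries. The part of gamma delta T cells and NK cells in the levels of Ifng, Tbx21 and the Th17 cytokines was not tested.

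**Figure D5:**
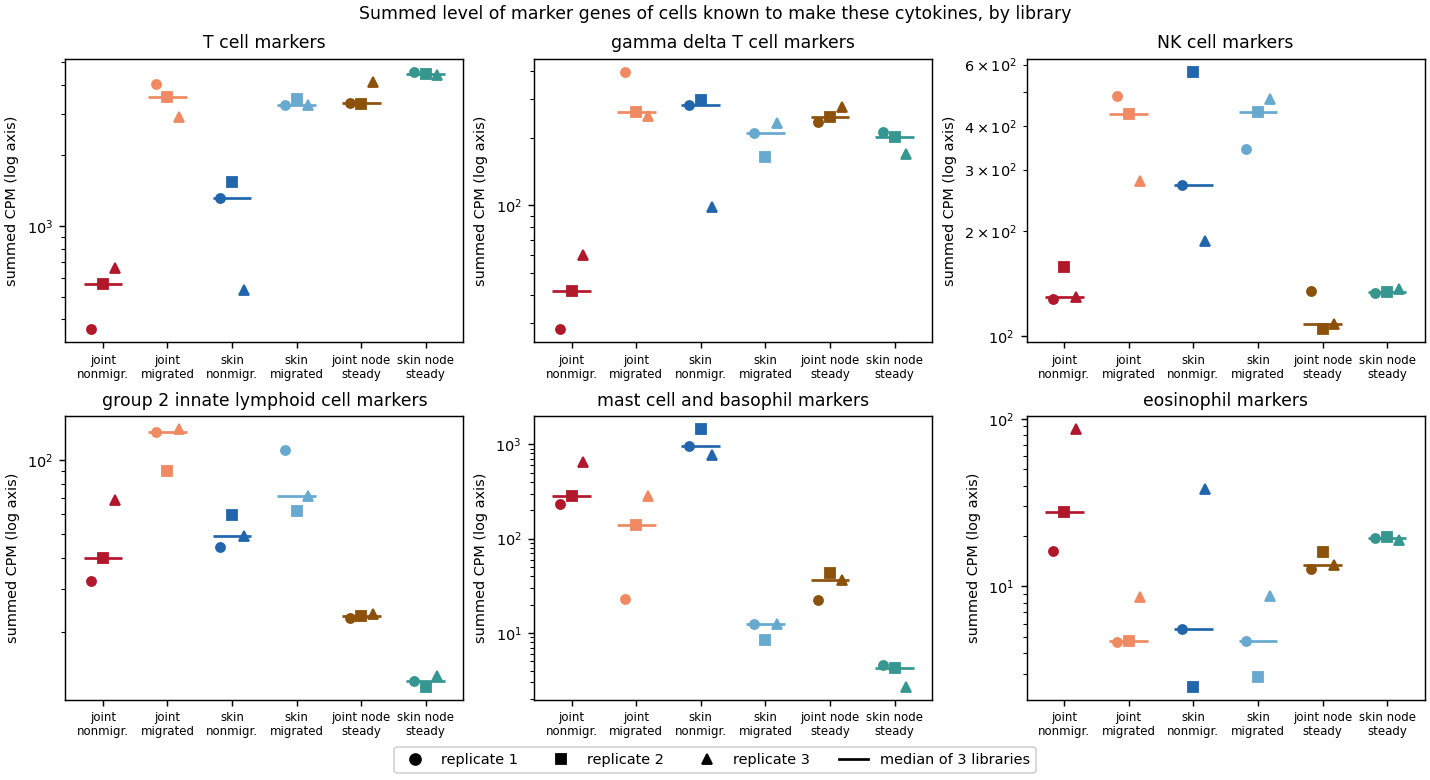
Summed CPM (log axis) of marker genes of 6 cell types in each library, with a line at the group median. Mast cell and basophil markers were at 771 to 1439 CPM in skin nonmigrated and 8.34 to 12.45 CPM in skin migrated libraries, and T cell markers had their lowest group median in joint nonmigrated ones (569 CPM).

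Against the steady-state nodes, all 9 genes were higher in joint migrated cells, where 16.9% of 17107 genes tested were, and 7 of 9 in skin migrated cells, where 21.5% were. Ifng was at 2.68 to 3.80 CPM in the joint and 2.66 to 3.01 CPM in the skin steady-state node. It was 7.30-fold higher in joint migrated cells (log2 2.87, SE 0.19, edgeR adjusted p = 7.28e-08) and 9.03-fold higher in skin migrated cells (log2 3.18, SE 0.19, edgeR adjusted p = 1.67e-08). Tbx21 was 3.01-fold higher in joint and 3.58-fold higher in skin migrated cells. The Th17 cytokine Il17a was 9.24-fold higher in joint migrated cells (log2 3.21, edgeR adjusted p = 2.75e-05) and 24.9-fold higher in skin migrated cells (log2 4.64, edgeR adjusted p = 4.49e-06), the latter against 3 to 19 counts a library. Il17f was 7.67-fold higher in the joint and 4.74-fold in the skin, and Il22 was 10.8-fold higher in the joint. Of the Th2 cytokines in skin migrated cells, Il4 was 5.35-fold (edgeR adjusted p = 0.00414) and Il13 6.49-fold higher (edgeR adjusted p = 0.00150). Both rest on few counts. Il4 had 10 to 18 counts in skin migrated and 0 to 7 in skin steady-state libraries, and Il13 had 12 to 54 and 6 to 16. The T cell marker sum of the steady-state nodes, 3304 to 4539 CPM, was close to that of the migrated groups, and 0 of 13 T cell markers were higher and 1 was lower in joint migrated cells, against 0 either way in skin migrated cells. B cell markers were higher at steady state, at 1566 to 2804 CPM for 3 genes against 65.1 to 548 CPM in migrated cells.

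The genes outside the skin count were Gata3, 1.53-fold higher (log2 0.62, edgeR adjusted p = 0.00302) and thus under the fold limit, and Il2, with 21 to 37 counts at steady state against 2 to 18 (log2 -0.27, edgeR adjusted p = 0.625). In the joint the calls of Il4, Il13 and Il2 had adjusted p of 0.0364 to 0.0430 by edgeR and were lost when libraries were left out. For Il4 these were joint migrated replicate 1 or 3 or joint steady-state replicate 1 or 2, for Il13 joint migrated replicate 3 or any joint steady-state library, and for Il2 any of the 6. Gata3 dropped to 0.92 on the log2 scale, under the fold limit, without joint migrated replicate 1.

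The steady-state nodes themselves differed in 2 of the 9 genes, Il17a and Il22, both higher in the joint node, where 3.23% of all genes were. Il17a was at 1.20, 2.26 and 2.24 CPM in the joint and 0.426, 0.139 and 0.0916 CPM in the skin node (log2 3.03, SE 0.53, edgeR adjusted p = 0.00283). Il17f, in contrast, overlapped at 0.689 to 1.30 and 0.471 to 1.09 CPM. Il22 had 31, 20 and 21 counts in the joint node and 3, 1 and 1 in the skin node, all at or under the floor, and the ratio of summed counts scaled for library size was 13.3 (95% counting interval 5.43 to 42.1). For skin migrated against skin steady-state cells that ratio was 63.2 (26.6 to 197). Whether the inflamed to steady-state change differed between the nodes was tested after the data were seen, and 0 of 9 genes passed by edgeR, where 6.11% of all genes did, while 4 had an unadjusted p under 0.05 and DESeq2 called 1, Il22. Neutrophil markers were also higher in the joint node (323 to 683 against 6.14 to 10.4 CPM for 4 genes), and their part in these values was not tested.

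The other genes of these pathways were taken from lists. Over all genes, 16.0% rose and 18.4% fell with migration in the joint, and 15.7% rose and 19.7% fell in the skin. The falls of the Th1 and Th2 lists in skin, given below, are near that last share. Of 10 Th1 genes, 5 rose with migration in the joint (median log2 change of the list 1.21, against 0.02 over all genes), led by Il27ra, a receptor chain for IL-27 (log2 2.78, SE 0.25). In the skin 3 rose and 2 fell (median 0.08, against 0.01 over all genes), Il27ra again leading the rises (log2 2.48) and Il12rb2, the inducible chain of the IL-12 receptor, the falls (log2 -1.47, SE 0.38, edgeR adjusted p = 0.00610). Of 11 Th2 genes, 4 rose in the joint, and in the skin 3 rose and 2 fell, with medians of 0.40 and -0.39. Ccr4, a chemokine receptor of Th2 and skin-homing T cells, led the rises at both sites (log2 3.61 and 2.34), and the transcription factor gene Maf led the falls in skin (log2 -1.42).

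Of 10 Th17 genes, 7 rose in the joint and 3 in the skin, with medians of 1.26 and 0.79. Ccr6, the chemokine receptor of Th17 and other cells, led in the joint (log2 4.73, SE 0.44, edgeR adjusted p = 5.45e-06) and Irf4, a factor used by several helper fates and by dendritic cells, in the skin (log2 2.30, SE 0.21, edgeR adjusted p = 4.93e-06). Of 8 genes of the IL-2 list, 4 rose in the joint and 3 in the skin, led by Il2ra, the alpha chain of the IL-2 receptor (log2 3.49), and the costimulatory receptor Cd28 (log2 1.80). These sets moved beside T cell markers that rose in the same comparisons.

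Among genes upstream and downstream of the cytokines, more fell than rose. Of 11 tested polarizing cytokines, 1 rose and 7 fell in the joint, where 16.0% of all genes rose and 18.4% fell. In the skin 9 fell, where 19.7% of all genes did. Il12b, which encodes the shared chain of IL-12 and IL-23, rose in the joint (log2 3.04, SE 0.75, edgeR adjusted p = 0.00479), while Tgfb1 fell at both sites (log2 -1.08 and -1.30). Of 8 interferon gamma response genes, 1 rose and 3 fell in the joint and 6 fell in the skin. Socs1, a brake on cytokine signaling, rose in the joint (log2 1.03, SE 0.11) and was among those that fell in the skin, and Nos2, the inducible nitric oxide synthase of macrophages, fell from 127 CPM to 0.0715 CPM, the level of the floor, in the joint and from 2245 to 2.24 CPM in the skin. Of 7 IL-4 and IL-13 response genes 6 fell at each site, led by Arg1, the arginase of alternatively activated macrophages (log2 -9.51 and -9.89). Macrophage markers summed to 1839 to 6653 CPM in nonmigrated and 47.4 to 161 CPM in migrated libraries of the 2 sites, and all 5 fell at each site. Dendritic cell markers summed to 208 to 747 CPM in nonmigrated and 940 to 2194 CPM in migrated ones. Of these 4 genes, 3 rose and 1 fell at each site. The part of these cell types in the falls and in the rise of Il12b was not tested.

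Of 11 tested receptor genes for the 7 cytokines, 3 rose and 3 fell in the joint, where 16.0% of all genes rose and 18.4% fell, and 2 rose and 3 fell in the skin, where 15.7% rose and 19.7% fell. These counts are near the background, and Il13ra2 and Il22ra1 were too low to test. Il10rb, a chain shared by the IL-22 and IL-10 receptors, led the falls at both sites (log2 -1.23 and -1.32), and Il2ra led the rises (log2 3.49 and 1.56).

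The genes whose pattern over the 18 libraries was most like that of each member were found by Pearson's r on log2(CPM + 1) over 17991 genes, a description in which libraries of 6 groups share their group. Il17f and Il22 were among each other's nearest (r = 0.966), with Fam171b beside both (0.966 and 0.972). Il13 had Il4 among its nearest 3 (0.954), and Ccl1, a chemokine gene, was near both Il4 (0.981) and Il13 (0.955). The gene nearest to Il4 was Cd207 (0.982), which encodes langerin of Langerhans cells and dermal dendritic cells. Gata3 was nearest to Pkp3, Ccdc92 and Thy1 (0.973 to 0.978), Tbx21 to Pvrig (0.955), Ifng to Slc43a3 (0.976), Il17a to Gprc5a (0.931) and Il2 to Scn8a (0.890). Among the members themselves, Tbx21 with Ifng gave 0.575 and Gata3 with Il4 -0.08.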

How the data were processed

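RNA of 18 pools was sequenced as 100 base paired ends. Per the labels and the study's methods, the authors trimmed reads with Trim Galore after FastQC, aligned them to mm10 with TopHat2 and counted genes of Ensembl 87 with HTSeq. The kit's strand is not given in the sources used here. The deposited values are whole-number counts per gene, in 1 table for all libraries, from which 5 HTSeq summary lines were removed (no feature 0.103 to 0.624%, ambiguous 2.06 to 2.69%), leaving 49585 genes, of which 49326 matched a GENCODE M21 symbol.

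Counts were fitted with edgeR 4.0.16 (limma 3.58.1, R 4.3.3), with TMM scaling, filterByExpr at a minimum count of 10 and the quasi-likelihood F test. The 12 inflamed libraries (16777 genes) and the 12 node libraries (17107 genes) made 2 fits of group means. A call needed an adjusted p under 0.05 (Benjamini-Hochberg over all genes) and an absolute log2 fold change over 1, and standard errors were taken from F. The procedure was tested on simulated data. Levels are CPM scaled over all 18 libraries. Tables were made with Python 3.11.15.

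Members and lists were chosen with earlier results of these data known. All 9 members are named, with the called gene of smallest adjusted p in each direction from each pathway list in the 2 migration comparisons, the sums of marker lists, and the 3 genes most correlated with each member among those with 10 counts in 3 libraries. Alternatives were a threshold of 0.001, size factors of DESeq2, the DESeq2 1.42.0 Wald test, no filter, other sample sets, a replicate block and leaving out libraries. The table held no comparison columns of the authors. The values of 1 pathway gene are not reported here.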

Additional observations from a re-analysis of the deposited data

Results flagged for a closer look

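Il4, Il13, Il22 and Il2 changed differently with migration in the joint and the skin by the interaction term of the edgeR fit over the 12 inflamed libraries. The joint change exceeded the skin change by 3.61 on the log2 scale for Il4 (SE 0.75, edgeR adjusted p = 0.0151), by 3.69 for Il13 (SE 1.00, edgeR adjusted p = 0.0446), by 3.61 for Il22 (SE 0.99, edgeR adjusted p = 0.0470) and by 3.52 for Il2 (SE 0.96, edgeR adjusted p = 0.0461). For Il4 and Il13 the skin change was a fall and the joint values overlapped, while Il22 rose in the joint and Il2 passed in opposite directions at the 2 sites. Il13, Il22 and Il2 were close to the threshold. Without skin nonmigrated replicate 3 all 4 passed, with differences of 4.03, 4.15, 4.09 and 3.96, but leaving out any other single library except joint nonmigrated replicate 3 left 1 or 2 genes called, and at an adjusted p under 0.001 there were 0.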

How the results depend on the processing

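For the 9 genes, 964 log2 fold changes under alternatives kept direction and call, 124 lost the call, 28 gained it and 26 changed sign, none of which passed the test either way. At an adjusted p under 0.001, 1 gene was called in each of joint migrated versus joint nonmigrated (3586 of all genes), skin migrated versus skin nonmigrated (3508) and joint versus skin nonmigrated (511), 0 in the difference between the migration changes (20) and 0 between the steady-state nodes (246). Among all genes that threshold gave 0 between the migrated groups, 2714 for joint migrated versus steady state and 152 for the difference between the node changes. With only the groups compared, 2 genes were called between the nonmigrated groups. DESeq2 called 488 of all genes between the migrated groups against 191, and 1756 against 1029 for the difference between migration changes, and 1 of the 9 for the difference between node changes, as did fits without a filter. Without a filter 327 of all genes differed between the migrated groups, and with all 18 libraries in 1 fit 407, with 1664 for the difference between migration changes and 666 for that between node changes. Same-numbered libraries correlated at 0.021 to 0.254 in the joint and 0.073 to 0.173 in the skin, so the numbers were not taken as pairs. Even so, every skin library, and every joint one except joint nonmigrated replicate 1, correlated best with its own number. With the replicate block the calls were 5 in the joint, 4 in the skin, 4 between nonmigrated groups, 2 for the difference between migration changes and 1 for that between node changes.

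Among the changes of sign, the skin migration change of Il17a was -0.00043 with size factors of DESeq2 and -0.0014 by DESeq2. Its difference between nonmigrated groups was 0.045 without a filter, 0.0017 with all 18 libraries and 0.0096 with only the groups compared. When 1 library was left out, these ran from -0.42 to 0.66 and from -0.72 to 0.62. Likewise the joint migration change ran from -0.0055 to 0.40 for Il4 and from -0.61 to 0.42 for Il13, the difference between migrated groups from -0.064 to 0.24 for Tbx21, -0.36 to 0.067 for Il4, -0.21 to 0.13 for Ifng and -0.18 to 1.01 for Il13, and that of Il2 between skin migrated and steady-state cells from -0.69 to 0.16.

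Leaving out 1 library gave 2 to 5 of the 9 genes in the joint, 3 to 6 in the skin, 2 to 7 between nonmigrated groups, 1 to 7 for the difference between migration changes and 0 to 1 for that between node changes. Among all genes it gave 1745 to 3720 between nonmigrated groups, 58 to 171 between migrated groups, 582 to 2610 for the difference between migration changes and 695 to 1240 for that between node changes. The cause of these moves was not tested. Depth limits Il4, Il2 and, at steady state, Il22, where libraries held as few as 0 to 3 counts.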
